A study of Rattus norvegicus with 4 samples.

Results

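The mRNAs of the gelatinases Mmp2 and Mmp9 and of the metalloproteinase inhibitor Timp1 were examined in the aorta and the small mesenteric arteries of the rat. They were chosen by gene identifier, ENSRNOG00000016695 for Mmp2, ENSRNOG00000017539 for Mmp9 and ENSRNOG00000010208 for Timp1, and are 3 of the 26313 Ensembl identifiers in the files. All 3 were found in each of the 4 samples. RNA-Seq was done on thoracic aorta (AO1 and AO2), a conduit artery, and on the mesenteric arterial arcade (MA1 and MA2), which holds small resistance arteries. The rats were untreated adult male Sprague-Dawley animals aged 12 weeks, with no transgene or mutation named. A single rat provided both AO1 and MA1, while AO2 came from another rat, and MA2 from yet another. The superior mesenteric artery was left out of the MA samples and these vessels were cleaned of fat, while no such cleaning is described for the AO samples. The samples are whole tissue lysates, so that smooth muscle, endothelium, adventitia and any blood or fat cells left on the vessel all contribute RNA. The labelled tissues were not checked against cell type markers, because the identifiers are not paired with gene symbols here beyond the 3 above.

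Matrix metalloproteinases are zinc-dependent enzymes that cut proteins of the extracellular matrix. Mmp2 (gelatinase A) and Mmp9 (gelatinase B) cut denatured collagen, basement membrane collagen and elastin, and both are secreted as inactive proenzymes. Mmp2 is made constitutively by smooth muscle cells and fibroblasts, whereas Mmp9 is an inducible enzyme made mainly by neutrophils, macrophages and stimulated vascular cells. Timp1 is a secreted inhibitor that binds the active site of metalloproteinases and also binds the proenzyme of Mmp9. The balance of these proteases and inhibitors is followed in vessels as a measure of matrix turnover.

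Expression is given in RPKM, reads per kilobase of gene and per library size, and the whole reads behind them were solved from their steps. Library sizes used for the RPKM lay between 83311442 and 90305293 reads, so that 1 read was worth 0.000389 to 0.000421 RPKM on Mmp2, 0.00137 to 0.00149 on Mmp9 and 0.00239 to 0.00259 on Timp1. The length behind the values was 28479 bp for Mmp2, 8066 bp for Mmp9 and 4627 bp for Timp1. In RefSeq (rat assembly GRCr8) the genes named Mmp2 and Mmp9 have spans, introns included, that differ from these lengths by 0.939% and 1.32%, while the length for Timp1 is 23.8% shorter than the RefSeq span, which covers several transcripts. The levels given here are therefore per kilobase of gene span and not of mRNA. This also holds for the ranks among genes and for the RPKM limit of the tests, which therefore depend on intron length. RPKM were also divided by a median-of-ratios factor for each sample, and are then called scaled RPKM. The factors were 0.789 and 0.897 for the AO samples and 1.22 and 1.16 for the MA samples. The 10 genes with the most reads took 43.8% and 35.9% of the reads in the AO samples but 18.5% and 16.2% in the MA samples, which leaves fewer reads for all other genes in AO.

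The gene for Timp1 lies within Syn1, which runs on the opposite strand and was the only gene overlapping any of the 3 in the RefSeq table. No strand-specific counting is described, so reads of the overlapping parts cannot be assigned to a strand. The 250 bases before the start of Timp1 in RefSeq are shown, at chrX:3771123-3771372 of GRCr8 on the minus strand. Timp1 was the only one of the 3 with a promoter sequence at hand, since Mmp2 and Mmp9 are not in the promoter table. The capitals mark matches to TGAGTAA, a form of the site bound by AP-1 (Fos and Jun) factors, AGGAAG, which holds the core bound by Ets factors, and GGGCGG, the box bound by Sp1.
Timp1: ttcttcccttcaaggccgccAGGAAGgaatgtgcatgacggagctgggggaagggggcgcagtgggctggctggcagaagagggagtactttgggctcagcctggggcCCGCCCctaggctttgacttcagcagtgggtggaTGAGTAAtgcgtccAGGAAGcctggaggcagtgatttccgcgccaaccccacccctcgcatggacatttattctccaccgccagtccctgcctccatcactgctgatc
TGAGTAA was found once, with its first base 108 bases before the start, on the strand of the gene. Searched on both strands, it is present in 2.38% of the 33469 windows of this length in the table. AGGAAG was found at 230 and at 94 bases before the start, the second match separated from TGAGTAA by 7 bases, and is present in 29.5% of all windows. GGGCGG was found once, on the opposite strand, and is present in 30.5%. The full AP-1 consensus TGANTCA, present in 6.34% of all windows, has no match in this one. None of these matches overlap each other, and they describe letters, not binding.

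Mmp2 mRNA ranked high per kilobase of gene span in both arteries, and no difference between MA and AO was found. Its RPKM was 2.76 for AO1 and 7.78 for AO2, and the MA samples had 7.70 and 7.91, from 7098, 19359, 18266 and 20037 reads in the same order. AO1 was the low sample, and the other 3 were within a narrow range of each other. After scaling, Mmp2 was at 3.50 and 8.68 RPKM in AO1 and AO2, with MA1 at 6.31 and MA2 at 6.83, so that both MA samples lay between the AO samples. In AO1 its RPKM exceeded that of 82.2% of the 18989 genes above 0, and in the other samples that of 89.6% to 90.7%. The mean scaled RPKM was 6.09 ± 3.66 (SD, n = 2) in AO and 6.57 ± 0.368 (SD, n = 2) in MA. In these whole tissues a lower share of the cells that make an mRNA and less mRNA per cell cannot be told apart.

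**Figure D1:**
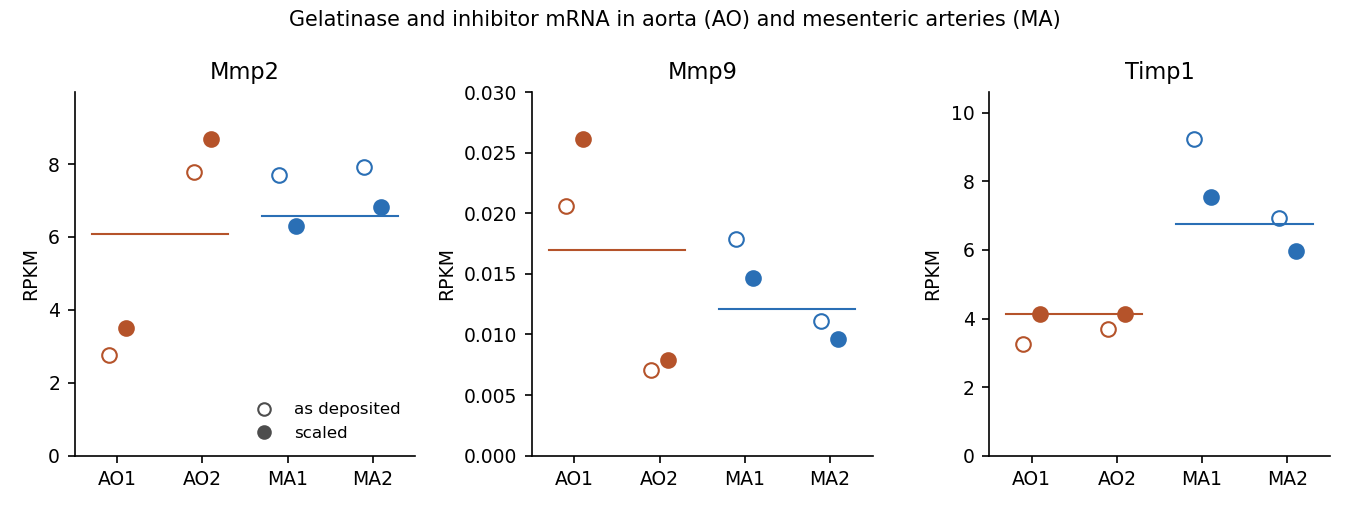
RPKM of Mmp2, Mmp9 and Timp1 (y axes, each from 0) in the 2 aorta samples (AO1, AO2) and the 2 mesenteric artery samples (MA1, MA2). Open circles are the values as deposited, filled circles the scaled RPKM, and lines the tissue means of the scaled RPKM. Mmp2 is low in AO1 alone, Mmp9 stays below 0.03 RPKM in all samples, and Timp1 is higher in both MA samples than in both AO samples.

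For the tests, MA was compared with AO by limma on log2(scaled RPKM + 0.5) over the 7203 genes that reached an RPKM of 1 in 2 or more samples. The pseudocount makes fold changes of weakly expressed genes appear smaller than they are. A gene was called when its Benjamini-Hochberg adjusted p did not exceed 0.05, the tissues were over 2-fold apart, and the MA and AO samples did not overlap. In all, 7.71% of the genes tested were called, 0.93% as enriched in MA and 6.77% as enriched in AO. Of the 3 mRNAs, 2 could be tested, Mmp2 and Timp1, and neither was called.

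The log2 difference of MA minus AO for Mmp2 was 0.22 (standard error 0.44, adjusted p = 0.814 from limma), with a 95% interval from -0.96 to 1.40, or from 0.516-fold to 2.64-fold. The interval includes differences of more than 2-fold in favor of MA, so that similar expression in the arteries is not shown. The difference rested on the AO samples. Without AO1 it turned to -0.39 (adjusted p = 0.582 from limma), and without AO2 it was 0.82 (adjusted p = 0.190 from limma), the lone AO sample being assumed to vary like the MA samples.

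Mmp2 differed more between the AO samples than most mRNAs did. On the log2(scaled RPKM + 0.5) scale AO1 and AO2 were 1.20 apart, against a median of 0.20 over the genes tested, and only 2.87% of these genes had a larger difference between AO1 and AO2. MA1 and MA2 were 0.11 apart, and 74.2% of the genes had a larger difference between these samples, for which the median was 0.24. Timp1 had its smaller difference in AO, but no unusually large one in MA. Its AO samples were 0.0055 apart, a difference exceeded by 98.3% of the genes, and its MA samples 0.31 apart, a difference exceeded by 38.9%. The near identity of its AO samples depended on the scaling. As deposited, the Timp1 RPKM were 1.13-fold apart in AO and 1.33-fold apart in MA. With 1 pair of samples per tissue, the spread within a tissue cannot be tested.

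**Figure D2:**
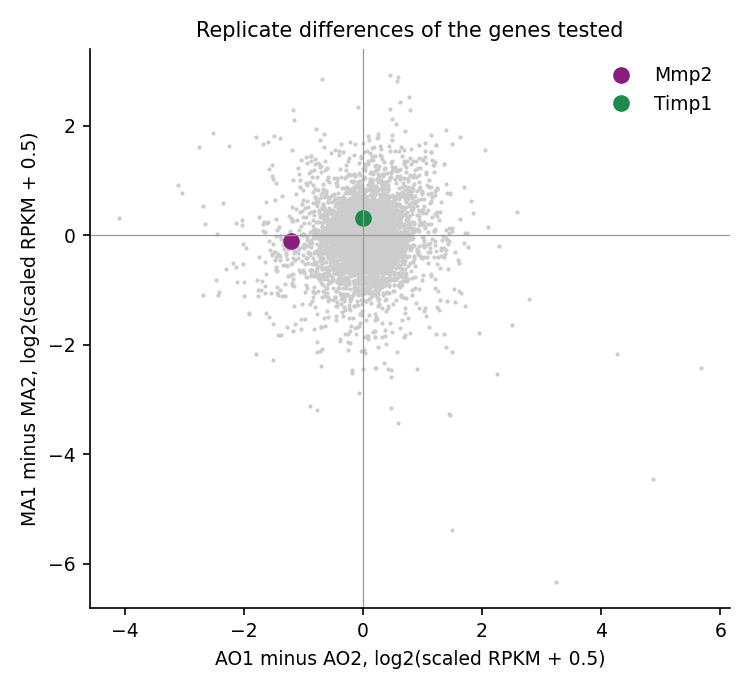
Difference between the 2 samples of a tissue for the 7203 genes tested (grey), AO1 minus AO2 on the x axis and MA1 minus MA2 on the y axis, both in log2(scaled RPKM + 0.5). Mmp2 (purple) lies 1.20 below 0 on the AO axis and near 0 on the MA axis, while Timp1 (green) lies at 0 on the AO axis and at 0.31 on the MA axis.

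Timp1 mRNA was higher in both MA samples than in both AO samples, but this difference did not pass the adjusted threshold. Its RPKM was 3.26 in AO1 and 3.69 in AO2, compared with 9.22 and 6.93 in the MA samples. The reads on the gene were 1364 and 1493 in AO and 3555 and 2851 in MA. After scaling, Timp1 was at 4.14 RPKM in AO1 and 4.12 in AO2, and at 7.56 in MA1 and 5.98 in MA2. The tissues do not overlap on any of these measures, and the gap between them was wider than the spread within either tissue. These measures all rescale the same reads, so they do not count as repeated evidence. With 2 samples against 2, even full separation has a two-sided exact permutation p of 0.333. The share of all genes tested that separate in this way was not counted, so the separation of Timp1 is not shown to be unusual. The mean scaled RPKM was 4.13 ± 0.0126 (SD, n = 2) in AO and 6.77 ± 1.11 (SD, n = 2) in MA. Timp1 exceeded 83.9% and 84.2% of the genes above 0 in AO1 and AO2, and 90.9% and 88.8% of those in MA1 and MA2.

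The log2 difference of MA minus AO for Timp1 was 0.64 (standard error 0.18, 95% interval from 0.15 to 1.14), which is 1.56-fold, with an interval from 1.11-fold to 2.20-fold. The unadjusted p from limma was 0.0221 and the adjusted p 0.124, and the difference was also below the limit of 2-fold. An unadjusted p of at most 0.05 from limma was reached by 1824 of the 7203 genes tested. Among the genes tested, 8.34% had a larger difference in favor of MA, and the median difference over all of them was -0.05. Scaling set the size of the Timp1 difference. With the RPKM as deposited it was 1.10 (adjusted p = 0.0567 from limma), but the median of all genes tested then stood at 0.37. With limma-voom on the reads of the same genes, it was 0.70 (adjusted p = 0.105 from limma-voom). Timp1 was higher in MA in each of the 16 alternatives, which for leaving out a sample follows from tissues that do not overlap, and was called in none of them.

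**Figure D3:**
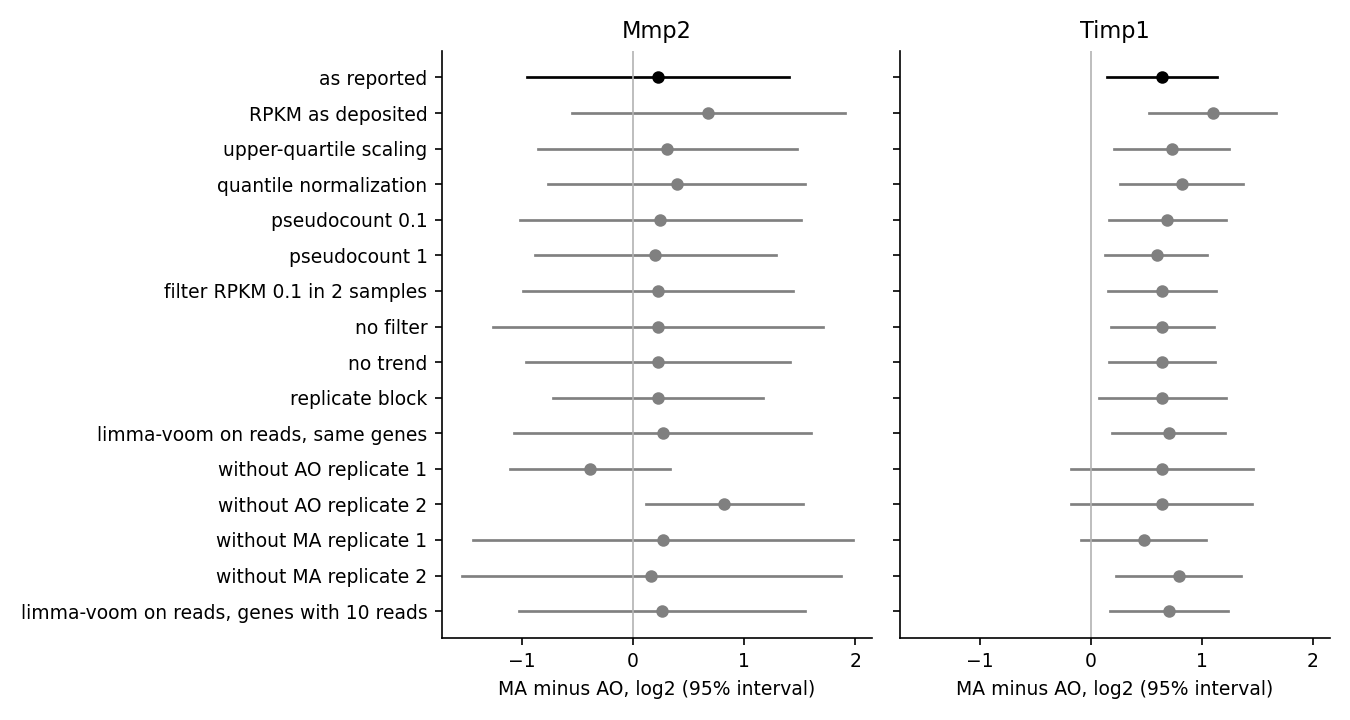
Log2 difference of MA minus AO for Mmp2 (left) and Timp1 (right) with its 95% interval (x axes), as reported (black) and under alternative settings (grey, 1 per line). The intervals for Mmp2 include 0 except without AO replicate 2, and the estimate falls below 0 without AO replicate 1. Those for Timp1 stay above 0 except without AO replicate 1, AO replicate 2 or MA replicate 1.

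Mmp9 mRNA was close to the limit of detection in both arteries. Its RPKM was 0.0206 in AO1 and 0.00710 in AO2, and 0.0179 in MA1 and 0.0111 in MA2. These values come from 15 and 5 reads in AO1 and AO2 and from 12 and 8 reads in MA1 and MA2. The samples overlap, with AO1 the highest and AO2 the lowest. The exact 95% Poisson intervals of the reads, which cover counting error only and take each solved read as 1 count, were 8.40 to 24.7 and 1.62 to 11.7 in the AO samples, and 6.20 to 21.0 and 3.45 to 15.8 in the MA samples. All 4 intervals overlap, which is not a test of the differences between samples. Mmp9 exceeded 17.5% of the genes above 0 in AO1 and 13.8% of those in MA1, with the other samples below that.

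With an RPKM far below 1 Mmp9 was not among the 7203 genes tested. There were 20 reads in the AO samples together and 20 in the MA samples together. Per library size this is 1.03 times as much in MA as in AO, with an exact 95% interval (Clopper-Pearson, counting error only) from 0.527 to 2.02. This ratio is without the scaling between samples. After scaling, the mean Mmp9 level was 0.0170 ± 0.0129 RPKM (SD, n = 2) in AO and 0.0121 ± 0.00354 (SD, n = 2) in MA, a ratio of MA to AO of 0.713, so that the direction depended on the scaling. With no filter on low values, limma on log2(scaled RPKM + 0.5) gave Mmp9 a log2 difference of MA minus AO of -0.01 (standard error 0.022, adjusted p = 0.805 from limma), but the pseudocount is far above its RPKM. On the reads of the 18257 genes with at least 10 reads over the 4 samples, a test chosen after seeing the data, the log2 difference of MA minus AO was -0.28 (standard error 0.88, adjusted p = 0.899 from limma-voom), with an interval from -2.58 to 2.02. Differences within this interval were not excluded by this test.

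**Figure D4:**
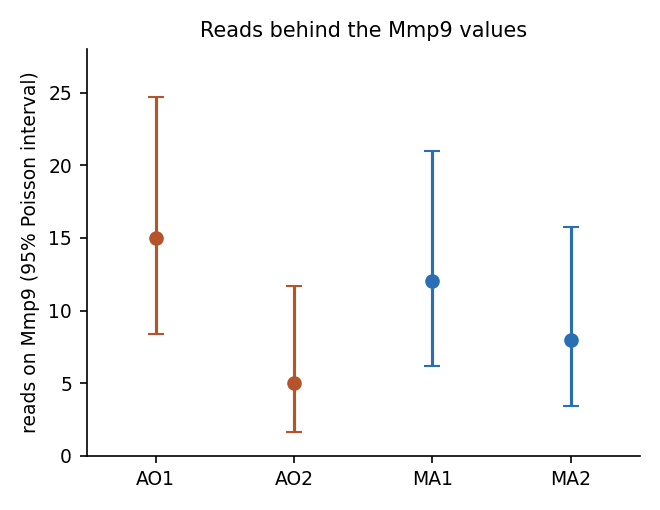
Whole reads on Mmp9 in the AO and MA samples (y axis, from 0) with exact 95% Poisson intervals as bars. The reads lie between 5 and 15, and all 4 intervals overlap.

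The protease to inhibitor ratio was formed from the RPKM within each sample and does not depend on the scaling between samples. It does depend on the length by which each gene was divided, so its absolute level is per gene span, whereas its comparison between samples is not affected by length. The ratio of Mmp2 to Timp1 was 0.845 in AO1 and 2.11 in AO2, compared with 0.835 in MA1 and 1.14 in MA2. AO2 was the high sample, and AO1 lay between the MA samples. Counted in reads without regard to length, Mmp2 had 5.20 reads for each read of Timp1 in AO1 and 13.0 in AO2, while MA1 had 5.14 and MA2 had 7.03. In AO1 and MA1 the ratio was thus below 1 per kilobase of gene span and above 1 in reads, while in AO2 and MA2 it was above 1 on both measures.

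The mean ratio of Mmp2 to Timp1 was 1.48 ± 0.892 (SD, n = 2) in AO and 0.988 ± 0.217 (SD, n = 2) in MA. On the log2 scale the ratio was -0.45 in MA relative to AO, which is less than the SD of 0.93 between the AO samples. The two-sided exact permutation p was 0.667, or 1.0 after Benjamini-Hochberg adjustment over the 3 ratios compared, and 2 samples against 2 cannot give a p below 0.333. Leaving out AO1 moved the log2 difference to -1.11, and leaving out AO2 turned it to 0.21.

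The ratio of Mmp9 to Timp1 was at most 0.00631 in any sample. It was 0.00631 in AO1 and 0.00192 in AO2, and the MA samples were at 0.00194 and 0.00161. AO1 was the highest, with a counting interval on the Mmp9 reads from 0.00353 to 0.0104. This overlapped the interval of AO2, which reached 0.00448, but not those of MA1 and MA2, which ended at 0.00338 and 0.00317. The log2 difference of MA minus AO was -0.98, within the SD of 1.21 between the AO samples (two-sided exact permutation p = 0.667, adjusted p = 1.0). Without AO1 it was -0.12, so the size of the difference rested on that sample.

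Compared with each other, the gelatinases were far apart in all samples. The ratio of Mmp9 to Mmp2 was 0.00746 in AO1 and 0.000912 in AO2, with 0.00232 and 0.00141 in the MA samples, so that the Mmp2 level per kilobase of gene span was between 134.0 and 1097 times that of Mmp9. The range within AO enclosed both MA samples. The log2 difference of MA minus AO was -0.53 (two-sided exact permutation p = 1.0, adjusted p = 1.0), and it turned to 0.99 without AO1. AO1 combined the lowest Mmp2 with the highest Mmp9, and AO2 the highest scaled Mmp2 with the lowest Mmp9, but the Mmp9 side of this rests on 15 and 5 reads.

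**Figure D5:**
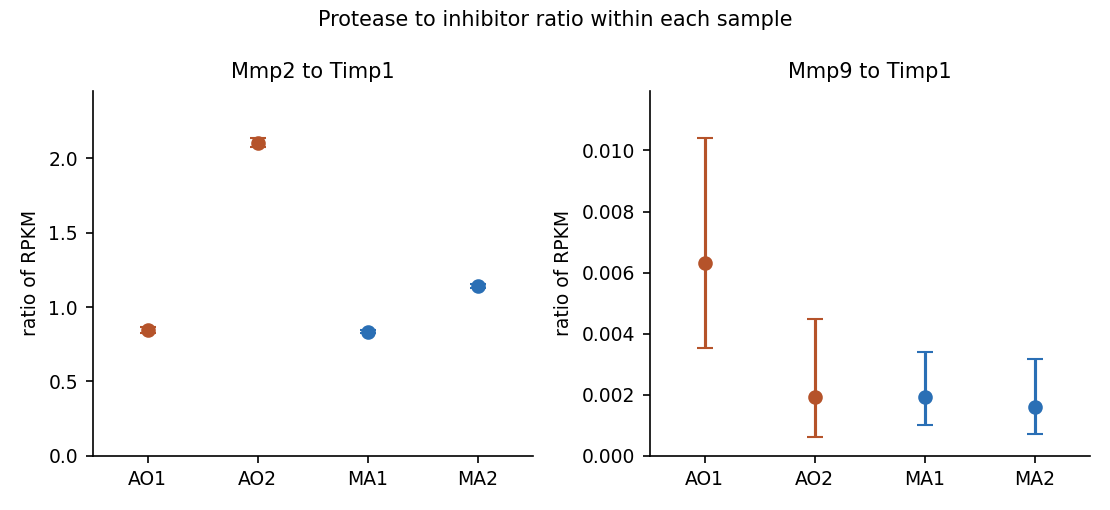
Ratio of Mmp2 to Timp1 (left) and of Mmp9 to Timp1 (right) within each sample (y axes, ratio of RPKM, from 0), with bars for the 95% counting interval of the protease reads. AO2 is highest for Mmp2 to Timp1 at 2.11 and AO1 is highest for Mmp9 to Timp1 at 0.00631, and the MA samples lie within or next to the range of the AO samples.

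By the Euclidean distance of log2(scaled RPKM + 0.5) centred over the 4 samples, the mRNA with the pattern most like that of Mmp2 among the other genes tested was ENSRNOG00000022595, at a distance of 0.071. Its RPKM was 1.90 in AO1 and 5.83 in AO2, and 5.33 and 5.57 in the MA samples, again with AO1 alone low. For Timp1 it was ENSRNOG00000022006, at a distance of 0.035, with 1.17 and 1.35 RPKM in the AO samples and 3.73 and 2.74 in the MA samples. Within a distance of 0.2 there were 5 genes for Mmp2 and 18 for Timp1. The files do not pair these identifiers with symbols, and likeness over 4 samples describes the samples only.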

How the data were processed

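RNA-Seq was done on 4 rat samples, 2 of AO and 2 of MA, sequenced on a single lane with paired-end reads. By the study's methods, the authors aligned reads with TopHat (version not given in the sources used here) to the Ensembl rat genome Rnor5.72, kept those with at most 2 alignments, and normalized the reads of each gene to mRNA length and library size. The deposited values are RPKM, 1 list per sample. DESeq, which the authors ran on counts, was replaced by limma because the files hold no counts. The solved lengths had a median of 15465 bp over 18257 genes with at least 10 reads, which is that of gene spans.

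Whole reads, lengths and library sizes were derived from the step size of the RPKM (7 decimals) with numpy 2.4.6 and numba 0.67.0, within 0.02 of whole reads in all samples, taking the smallest length, and tested on simulated data. The sums were 72493028 to 82418143 per sample. The highest, in AO1, exceeds what the study's description of its sequencing allows for mapped reads, so a solved read may not equal 1 mapped read, and the counting intervals given for Mmp9 depend on this. The fit used limma 3.58.1 in R 4.3.3 (lmFit, eBayes with a trend) on log2(scaled RPKM + 0.5). It was also run on simulated reads with a common setting for the spread of all genes. That run does not show how the fit performs on these data, where the spread differs between genes. The ratios used exact permutation tests in scipy 1.17.1.

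The alternatives were other scalings, pseudocounts of 0.1 and 1, other filters, no trend, the replicate number as a block, limma-voom on solved reads, a limit of 2 SD on the difference between the MA samples, and leaving out each sample. The genes named are the 3 mRNAs and, for each one tested, the identifier nearest in pattern. The members and lists were chosen with earlier results of these data known. The symbols of the 3 identifiers were assigned beforehand, and 0 of the 47357 genes in the RefSeq table carry an Ensembl identifier, so the lists of other metalloproteinases, inhibitors and cell type markers were not evaluated and are not analysed here. Only AO1 and MA1 share a rat, which neither the fit as reported nor the permutation tests took into account. The p-values from limma set a difference against the spread within the tissues, moderated by that of the other genes tested.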

Additional observations from a re-analysis of the deposited data

How the results depend on the processing

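Mmp2 and Timp1 were not called under any alternative. Apart from leaving out samples, their log2 differences ranged from 0.20 to 0.68 and from 0.59 to 1.10, with adjusted p from 0.307 to 0.865 and from 0.0567 to 0.214 (limma or limma-voom). Leaving out 1 sample gave -0.39 to 0.82 for Mmp2, reversed without AO1 at -0.39, and 0.48 to 0.79 for Timp1. For Mmp9 the log2 difference was -0.01 at a pseudocount of 0.5, -0.057 at 0.1 and -0.28 with limma-voom on genes with 10 reads, since a pseudocount above its RPKM hides its differences, and -0.04 to 0.01 on leaving out 1 sample.

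Of 7203 genes, 555 were called, 67 enriched in MA and 488 in AO. Genes enriched in MA numbered 170 with the RPKM as deposited, 43 with a pseudocount of 1, 39 with a filter of 0.1 RPKM and 38 with limma-voom on genes with 10 reads, an alternative added after seeing the data. Genes enriched in AO numbered 260 with the RPKM as deposited, and 368 genes in all were called with the filter of 0.1 RPKM. With no filter limma called 0 genes in either direction, while 3434 had an unadjusted p not above 0.05. Leaving out 1 sample gave 0 to 199 genes by limma, 0 to 64 enriched in MA and 0 to 135 in AO, and 1143 to 1904 with an unadjusted p not above 0.05. The cause was not tested.

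With a replicate block, 559 genes were called, 105 enriched in MA and 454 in AO. The adjusted p was 0.767 for Mmp2 and 0.159 for Timp1 (limma). Same-numbered samples hardly deviated together (correlation 0.018 over 7203 genes), and the block changed no call of the mRNAs named. Since AO2 and MA2 came from different rats, neither the block nor the correlation can show the effect of a shared rat. Leaving out 1 sample moved the log2 difference of the ratios between -1.11 and 0.21 for Mmp2 to Timp1, -1.84 and -0.12 for Mmp9 to Timp1, and -2.05 and 0.99 for Mmp9 to Mmp2. Ratios per coding length were not run, as protein lengths were not used here.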
